A study of Mus musculus with 16 samples.

Results

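Genes of double-stranded RNA sensing and the interferon response, 9 chosen by symbol, were followed in bone marrow CFU-E cells: Ifih1, Ddx58, Dhx58, Mavs, Eif2ak2, Adar, Irf3, Irf7 and Isg15. All 9 were present among the 15386 genes of the RNA-seq table and among the 13490 genes of the m6A table. CFU-E cells are committed erythroid progenitors, sorted as live, lineage-negative cells that carry Kit and CD71. The RNA-seq comparison set 3 libraries of control CFU-E against 3 libraries labelled CFU-E Kit-low Mettl3 KO, made with a Smart-seq2 protocol. The m6A experiment (SLIM-seq) set 2 immunoprecipitated (IP) libraries of control CFU-E against 2 input libraries of the same kind of cell, and holds no Mettl3-deficient cells. The Mettl3-deficient mice were Mettl3 fl/fl with 1 copy of EpoR-tdTomato-Cre, a driver that acts in erythroid cells and in the macrophages of erythroblastic islands, and the mice of the study were 10 to 16 weeks old on a C57BL/6 background. The genotype of the controls is not further described in the sources used here. The compared groups differed in genotype and in the Kit gate at once, and no control Kit-low cells were analysed here, so these cannot be told apart. The labels do not say that replicates came from separate animals, so the p-values measure only the spread between these libraries.

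Long double-stranded RNA in the cytosol is a sign of viral infection, but a cell's own transcripts can also pair with themselves or with antisense RNA. MDA5 (encoded by Ifih1) and RIG-I (Ddx58) bind such RNA and signal through MAVS on mitochondria to the kinases that activate the transcription factors IRF3 and IRF7, which drive interferon genes and, with them, interferon-stimulated genes such as Isg15. Mettl3 is the catalytic subunit of the complex that writes N6-methyladenosine (m6A) on mRNA, a mark known to weaken RNA pairing, and the question behind the comparison was whether genes of innate RNA sensing were higher in the Kit-low Mettl3-deficient cells.

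The targeted gene and the gate were read first. Mettl3 stood at 115, 123 and 130 CPM (a gene's counts scaled to a common library total with TMM factors) in control and at 117, 127 and 108 CPM in the Kit-low libraries, and the groups overlapped (log2 fold change -0.07, SE 0.10, adjusted p = 0.634). These counts cover the whole gene, and the exons that the floxed allele loses are not given in the sources used here, so the Mettl3 level does not check the genotype label. Kit fell from 544, 629 and 622 CPM to 68.5, 53.1 and 44.0 CPM (log2 fold change -3.44, SE 0.15, adjusted p = 4.31e-07), as the gate selects. Library totals ran from 17429262 to 21329242 counts in RNA-seq and from 19421059 to 37142742 counts in the m6A experiment. The summed level of 10 late erythroid markers was 786–816 CPM in control and 3414–5300 CPM in the Kit-low libraries. That of the 7 CFU-E markers was 3039.5–3132 and 3029.5–3170.2 CPM. The similar CFU-E sums held opposite changes: by the call rule given below, 2 of these 7 markers were higher and 2 lower, Kit among the lower.

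Many interferon-stimulated genes carry in their promoter the interferon-stimulated response element, a site bound by IRF complexes. Its core, written here as GAAANNGAA (TTCNNTTTC on the opposite strand), was looked for on both strands, overlapping matches included, from 250 bases before to 50 bases after each RefSeq start on build GRCm38.p6. Among the 8 members with a promoter in that table, 5 (62.5%) held a match: Ifih1, Ddx58, Eif2ak2, Adar and Isg15. Of 32851 RefSeq promoters of the same length 8.56% held one, as did 8.64% of the genes tested in RNA-seq. The windows are shown because they set apart the members that carry the element from Mavs, Irf3 and Irf7, whose windows held no such letters; capitals mark the matched bases, each line runs 5′ to 3′ on the gene's own strand, and Dhx58 had no entry.
Isg15, chr4:156200871-156200900, minus strand: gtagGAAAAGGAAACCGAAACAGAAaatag
Ifih1, chr2:62646348-62646377, minus strand: agaattcgcgTTCCCTTTCctgtttctcac
Ifih1, chr2:62646206-62646235, minus strand: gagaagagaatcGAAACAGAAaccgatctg
Ddx58, chr4:40239803-40239832, minus strand: ctgaggcagtTTCGATTTCctatggccagc
Eif2ak2, chr17:78882532-78882561, minus strand: ccgccggGAAAACGAAACAGAAgagaaccg
Adar, chr3:89730468-89730497, plus strand: gGAAAAGGAActtcctcacagggcggagag
Adar, chr3:89730738-89730767, plus strand: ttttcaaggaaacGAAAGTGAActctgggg
Isg15 held 3 matches in 1 window and Eif2ak2 held 2. A match is a description of the letters, not a site shown to be bound.

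Of the 9 members, 1 rose and 1 fell in the Kit-low libraries over control CFU-E. Mavs, the mitochondrial adaptor, was 1.82-fold higher, and Ifih1, which encodes the sensor MDA5, stood at 0.557 of its control level. The call rule was an adjusted p under 0.05 in edgeR's quasi-likelihood test and a 1.5-fold or larger difference either way. Across all 11979 genes tested, 22.0% were called, 12.1% higher and 9.83% lower, so 2 of 9 is a share near the background. The median log2 fold change of the members was -0.01, against 0.01 over all genes tested. All 9 members passed the filter on low counts.

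Among the sensors, Ifih1 (chr2:62595798-62646255, GRCm38 annotation, minus strand) was the member that fell. MDA5 recognises long double-stranded RNA. Ifih1 stood at 105, 108 and 113 CPM in control and at 65.8, 55.2 and 60.4 CPM in the Kit-low libraries. Every Kit-low library lay below every control library (log2 fold change -0.84, SE 0.10, adjusted p = 0.000162), and the gene stayed called under all 16 alternative settings, with log2 fold changes from -0.91 to -0.76.

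Ddx58 (chr4:40203773-40239828, minus strand), which encodes RIG-I, a sensor of short double-stranded RNA with a 5′ triphosphate, varied most between replicates. It stood at 20.3, 34.8 and 18.8 CPM in control and at 22.6, 8.35 and 14.0 CPM in the Kit-low libraries. The groups overlapped through Kit-low replicate 1, which lay above control replicates 1 and 3. The log2 fold change of -0.72 (SE 0.34, adjusted p = 0.141) did not pass the test; without Kit-low replicate 1 it was -1.14 and passed, with an adjusted p of 0.0173, and over all alternatives the adjusted p ran from 0.0173 to 0.699.

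Dhx58 (chr11:100694884-100704271, minus strand) encodes LGP2, a helicase of the same family that lacks the signalling domains and modulates the other receptors. It stood at 22.4, 26.9 and 25.02 CPM in control and at 27.6, 15.97 and 20.4 CPM in the Kit-low libraries, with the groups overlapping (log2 fold change -0.21, SE 0.20, adjusted p = 0.452). Dhx58 was not called under any alternative.

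Mavs (chr2:131234063-131248025, plus strand) receives the signal of both receptors. Its level was 80.8, 69.5 and 78.8 CPM in control and 141, 141 and 135 CPM in the Kit-low libraries. The Kit-low libraries lay close together and all above control (log2 fold change 0.86, SE 0.09, adjusted p = 8.89e-05). Mavs stayed called under all 16 alternatives, with log2 fold changes from 0.79 to 0.92.

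The 2 members that act on double-stranded RNA outside the receptor branch showed no difference beyond the replicate spread. Eif2ak2 (chr17:78852564-78882573, minus strand) encodes PKR, the kinase that stops translation by phosphorylating eIF2 alpha when it binds double-stranded RNA, and stood at 37.0, 36.4 and 35.7 CPM in control and 39.5, 35.3 and 33.8 CPM in the Kit-low libraries. Its log2 fold change was -0.01, with a 95% interval from -0.27 to 0.26. Adar (chr3:89715022-89753446, plus strand) encodes ADAR1, which edits adenosines in double-stranded RNA to inosine and thereby keeps the cell's own RNA from the sensors. It stood at 76.7, 78.4 and 76.8 CPM in control, with a spread of 1.25% of the mean, and at 101, 56.5 and 67.7 CPM in the Kit-low libraries, with a spread of 30.6%. The control libraries lay within the range of the Kit-low libraries, and the log2 fold change was -0.04, with an interval from -0.45 to 0.36. Its exons share 1365 bases with Chrnb2 on the opposite strand, and the counting is not stated to use strand, so reads of these genes cannot be told apart there.

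The transcription factors differed little between the groups. Irf3 (chr7:44997648-45002848, plus strand), which is present in most resting cells and is activated by phosphorylation, stood at 120, 121 and 104 CPM in control and at 137, 124 and 131 CPM in the Kit-low libraries. The groups did not overlap, but the log2 fold change of 0.18 (SE 0.09, adjusted p = 0.177) did not pass the test. In all, 3 of the 9 members had groups without overlap, Ifih1, Mavs and Irf3, beside 47.5% of all genes tested. Irf7 (chr7:141262706-141266481, minus strand), itself an interferon-stimulated gene that amplifies the response, stood at 12.6, 13.8 and 14.3 CPM in control and at 17.3, 10.4 and 13.8 CPM in the Kit-low libraries (log2 fold change 0.03, interval from -0.44 to 0.49).

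Isg15 (chr4:156199424-156200818, minus strand) encodes a ubiquitin-like modifier and is among the genes most readily induced by type I interferon. It was the lowest member, with 28, 27 and 14 counts in the control libraries and 41, 25 and 29 counts in the Kit-low libraries, or 1.34, 1.54 and 0.80 CPM against 2.13, 1.21 and 1.51 CPM. The groups overlapped (log2 fold change 0.39, interval from -0.68 to 1.47, adjusted p = 0.579). At this depth the interval is wide enough to hold a change of more than the 1.5-fold threshold.

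**Figure D1:**
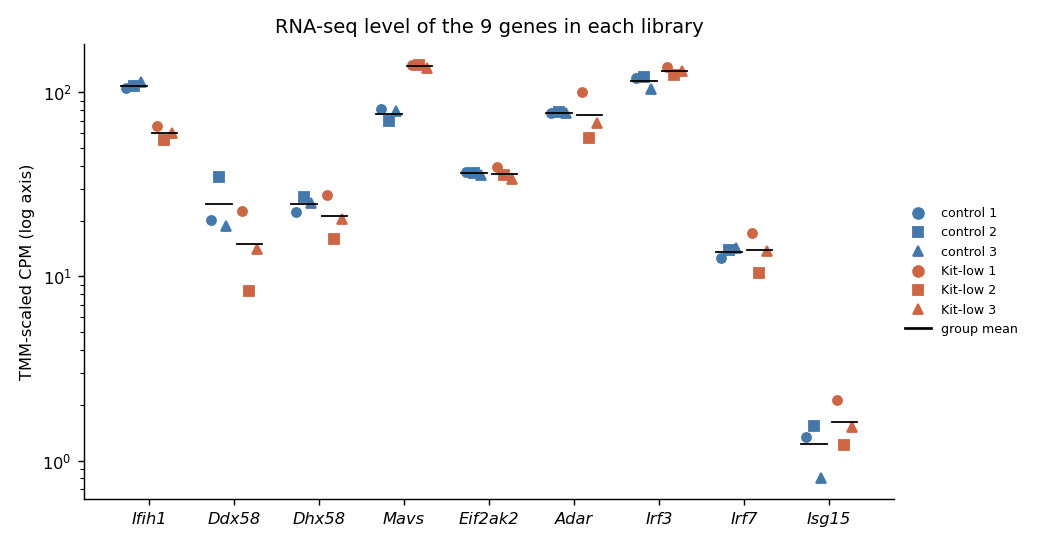
RNA-seq level of each of the 9 genes in the 3 control and 3 Kit-low libraries, in TMM-scaled CPM on a log axis, with the marker shape giving the replicate and black lines the group means. Ifih1 is lower and Mavs higher in every Kit-low library, and Kit-low replicate 1 (circle) is the highest Kit-low library for 8 of the 9 genes.

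Levels between genes were compared per length, as CPM per kilobase of the longest annotated transcript, in control CFU-E. Irf3 led with 56.7 ± 4.57 (SD, n = 3), followed by Mavs with 24.98 ± 1.97, Ifih1 with 19.9 ± 0.78, Adar with 13.1 ± 0.16, Dhx58 with 10.3 ± 0.93 and Eif2ak2 with 8.44 ± 0.15. Ddx58 (6.36 ± 2.29), Irf7 (6.07 ± 0.40) and Isg15 (1.63 ± 0.51) were the lowest. The ranges of Ddx58 over the 3 libraries overlapped those of Irf7 and Eif2ak2, so these cannot be ordered. In the Kit-low libraries Irf3 (64.1 ± 3.26) and Mavs (45.5 ± 1.21) still led, and the ranges of Adar (12.7 ± 3.89), Ifih1 (11.1 ± 0.97) and Dhx58 (8.85 ± 2.44) overlapped. With the union of all exons as the length, Irf7 (3.597) came before Ddx58 (3.50) in control. By that length Mavs (41.6 ± 1.11) came before Irf3 (37.8 ± 1.92) in the Kit-low libraries, without overlap, so the order of these depends on the length used. Mavs and Irf3 stood well above Isg15 and Irf7 in both groups.

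Kit-low replicate 1 was the highest of its group for 8 of 9 members, all but Mavs, and Kit-low replicate 2 was the lowest for 7. Over the 65 tested genes of a list of interferon-stimulated genes, replicate 1 was the highest for 64.6% and replicate 2 the lowest for 60.0%, against 32.6% and 29.9% over all genes tested. Within control, replicate 2 was the highest library for 5 of 9 members and for 63.1% of the interferon-stimulated genes, against 33.1% of all genes. The members and the listed interferon-stimulated genes thus shared the library in which they were highest, in each group; these are values of 1 library each and were not tested.

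**Figure D2:**
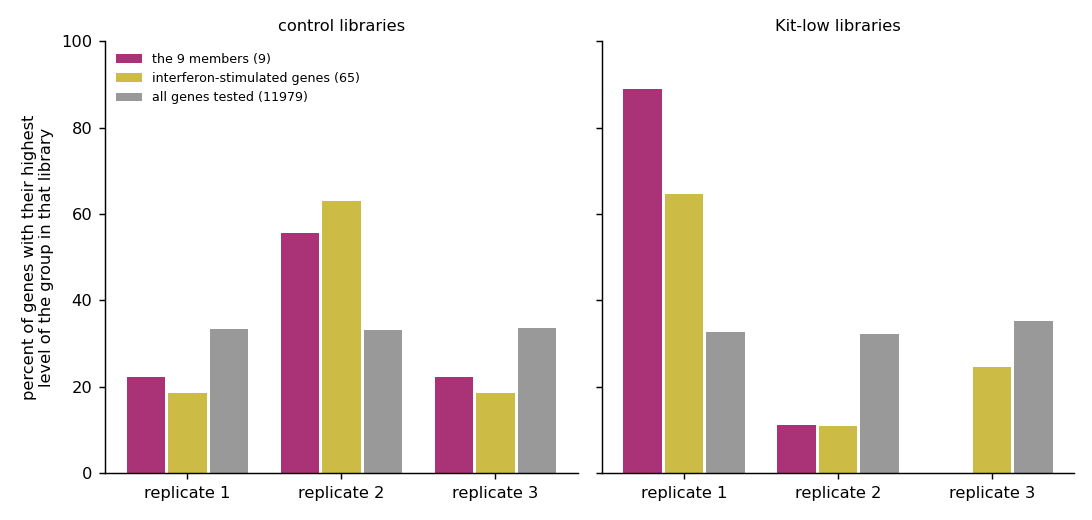
Share of genes, in percent, whose highest level within the group was found in each replicate, for the 9 members, the 65 tested interferon-stimulated genes and all 11979 genes tested. Control replicate 2 and Kit-low replicate 1 stand above the share of all genes, which lies between 32.2% and 35.3%.

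Markers of other cell types were summed in each RNA-seq library, since the response to double-stranded RNA differs by cell type. Of 12 macrophage markers 10 were in the table, summing to 11.1–15.7 CPM in control and 10.1–16.2 CPM in the Kit-low libraries. The 3 of 7 plasmacytoid dendritic cell markers in the table summed to 2.002–3.21 and 1.66–5.01 CPM. The 8 of 11 lymphoid markers in the table summed to 21.1–25.8 CPM in control and 6.70–9.04 CPM in the Kit-low libraries, without overlap, led by Ptprcap, and the 10 granulocyte markers to 25.8–39.2 and 16.2–24.8 CPM, led by Mpo. Only 1 lymphoid marker passed the filter on low counts, and it was called lower. Of the 4 granulocyte markers that passed, 1 was called higher and 1 lower, so the sums do not describe each list as a whole. The 4 of 6 megakaryocyte markers in the table summed to 13.1–20.4 and 20.03–25.9 CPM, and 2 of these 4 were called higher. Of the 7 macrophage markers that passed the filter, 1 was called lower. No marker of these lists in the table was at 0 in every library. The part of any of these lists, or of the late erythroid markers, in the results of Ifih1 and Mavs was not tested. In a sorted population fewer cells of a type cannot be told apart from less RNA per cell.

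The other genes of the pathway were read from 6 lists of 188 genes. Among the other nucleic acid sensors, 1 of 15 tested genes rose and 2 fell (20% called, against 22.0% of all genes), with a median log2 fold change of -0.05. Nlrx1, a mitochondrial protein described as a restraint on MAVS signalling, rose from 3.599 ± 0.55 to 16.1 ± 1.57 CPM (SD, n = 3; log2 fold change 2.16, adjusted p = 5.13e-05). Aim2, a sensor of cytosolic DNA, fell from 4.87 ± 1.04 to 1.47 ± 0.15 CPM (-1.72, adjusted p = 0.00354). Ddx60, a helicase linked to the RIG-I-like receptors, fell by 1.59 on the log2 scale (adjusted p = 0.0295), but this call was lost without control replicate 2 (adjusted p = 0.103), control replicate 3 (0.0822), Kit-low replicate 2 (0.0679) or Kit-low replicate 3 (0.0678), and without Kit-low replicate 1 the log2 fold change was -2.47.

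Signalling genes between the sensors and the IRFs moved in both directions: 8 of 29 tested rose and 3 fell (37.9% called, against 22.0% of all genes), with a median of 0.00. Those that rose included Tradd, Traf3 and Fadd, adaptors recruited to MAVS. Tradd stood at 63.5, 60.7 and 58.4 CPM in control and at 137, 123 and 110 CPM in the Kit-low libraries (log2 fold change 1.02), Traf3 rose from 21.5 ± 3.24 to 41.7 ± 4.34 CPM and Fadd from 37.9 ± 2.36 to 70.0 ± 5.87 CPM. Ikbke, a kinase of IRF3, rose by a log2 fold change of 0.998 from 4.36, 5.26 and 5.27 CPM to 13.9, 9.27 and 6.57 CPM, a call lost without Kit-low replicate 1 (0.67, adjusted p = 0.093) or any 1 control library (adjusted p from 0.062 to 0.0928). The largest fall was that of Tnfaip3, which encodes A20, a negative regulator of NF-kappaB and IRF3 signalling: it stood at 52.9, 61.8 and 40.8 CPM in control and at 2.23, 6.99 and 4.02 CPM in the Kit-low libraries (-3.55, SE 0.34, adjusted p = 4.47e-05). Rnf125, a ubiquitin ligase known to target RIG-I, MDA5 and MAVS for degradation, fell from 11.2 ± 0.97 to 4.53 ± 0.35 CPM (-1.30, adjusted p = 0.00116). Tradd, Traf3, Fadd, Tnfaip3 and Rnf125 were called under all 16 alternatives.

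Of 10 interferon genes listed, 9 were not among the genes of either experiment, so nothing can be said of their level. Ifnk, named outside the naming rule, held 0 to 5 counts a library in RNA-seq, under the filter. Of the interferon receptor and JAK-STAT genes, 2 of 15 tested rose and 3 fell (33.3% called, against 22.0% of all genes), with a median of 0.13. Ifnar1, a chain of the type I interferon receptor, rose from 23.4 ± 0.53 to 42.4 ± 5.19 CPM (log2 fold change 0.86, adjusted p = 0.000819). Ifngr1, of the interferon gamma receptor, fell from 759, 957 and 866 CPM to 440, 356 and 417 CPM (-1.09, adjusted p = 5.07e-05).

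Interferon-stimulated genes moved in both directions. Of 65 tested, 16 rose and 14 fell (46.2% called, against 22.0% of all genes), and the median log2 fold change was 0.02. Those that rose included the antiviral effectors Ifit2 (14.1 ± 3.31 to 35.8 ± 3.21 CPM, log2 fold change 1.35), Ifitm3 (42.0 ± 4.52 to 106 ± 23.02 CPM, 1.34) and Rsad2, which encodes viperin (17.1 ± 5.28 to 37.3 ± 2.81 CPM, 1.13). Znfx1, a helicase that binds double-stranded RNA at mitochondria, rose from 17.7 ± 2.16 to 50.9 ± 9.07 CPM (1.53, adjusted p = 8.70e-05). Those that fell included Lgals9 (1172 to 256 CPM, -2.19), the immunoproteasome subunit Psmb8 (15.8 ± 2.43 to 3.33 ± 2.70 CPM, -2.25), Ifi44 (18.2 ± 1.64 to 4.31 ± 1.96 CPM, -2.08), Ifi27 (89.1 ± 4.77 to 41.5 ± 6.38 CPM, -1.10) and Trim30a (-1.18). Psmb8 stood at 6.44 CPM in Kit-low replicate 1 against 1.94 and 1.62 CPM in the others, and without that library its log2 fold change was -3.15. Among the 27 tested genes of the list with the promoter core 7 rose and 9 fell, and among 27 without it 7 rose and 3 fell.

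The last lists held the partners of Adar and Eif2ak2. Of 21 tested genes that bind, edit or clear double-stranded RNA, 5 fell (23.8%, against 9.83% of all genes called lower, 22.0% either way). They included the double-stranded RNA-binding proteins Strbp (58.1 ± 5.49 to 20.6 ± 2.71 CPM, log2 fold change -1.499), Prkra (52.8 ± 5.78 to 19.2 ± 2.65 CPM, -1.46), Stau2 (-1.30) and Zfr (149 ± 9.20 to 92.8 ± 7.15 CPM, -0.68). Prkra encodes PACT, a protein activator of PKR. None of the list rose by edgeR or by DESeq2, with 4 genes higher at an unadjusted p under 0.05, and the median of the list was -0.13. Stau2 was lost without control replicate 1 (adjusted p = 0.0609) or control replicate 3 (0.083).
Of the 12 genes around eIF2 alpha, the substrate of PKR, 4 rose (33.3%, against 12.1% of all genes called higher, 22.0% either way). The median of the list was 0.21. Trib3, a target of the stress factors ATF4 and CHOP, rose from 0.05, 0.40 and 0.34 CPM to 7.90, 9.52 and 9.02 CPM (log2 fold change 5.08, SE 0.50, adjusted p = 5.17e-05), Eif2ak1, which encodes the heme-regulated kinase HRI, from 172 ± 15.1 to 270 ± 21.6 CPM (0.65), and Ppp1r15b, a phosphatase subunit that reverses the phosphorylation, from 343 ± 7.35 to 525 ± 25.7 CPM (0.61). Eif2ak1 fell under the 1.5-fold threshold without control replicate 1 (0.57), and Eif2ak3, which encodes PERK, rose by 0.82 but was called in neither fit that left out Kit-low replicate 1 (adjusted p = 0.0932) or replicate 2 (0.0516), nor in those that left out 1 control library (0.0658 to 0.096). None of this list fell by edgeR or DESeq2, with 2 genes lower at an unadjusted p under 0.05.

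**Figure D3:**
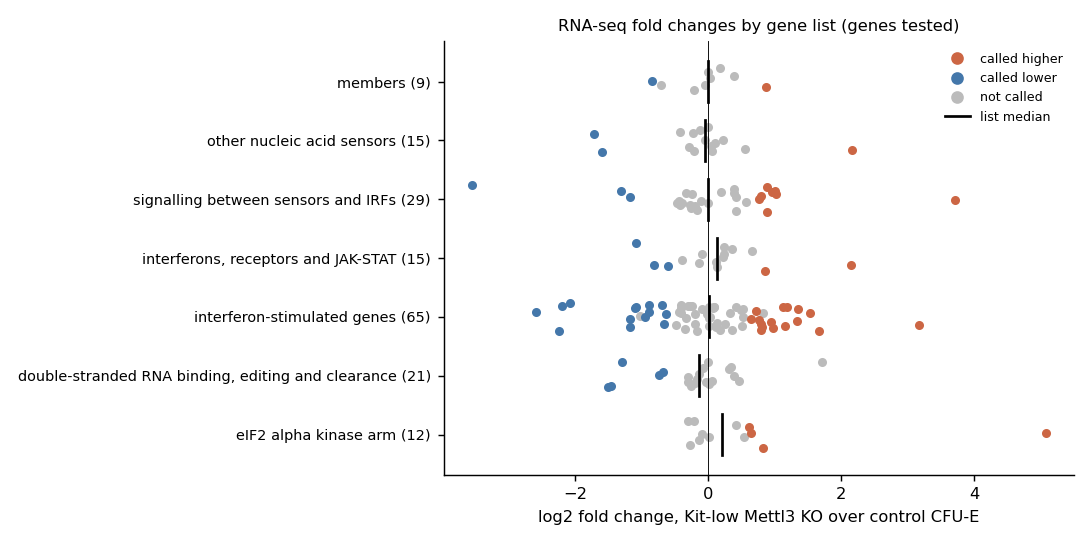
RNA-seq log2 fold change of every tested gene of the 9 members and of the 6 pathway lists, Kit-low over control, with the number tested in brackets, colours for the calls and black bars for list medians. The list medians lie between -0.13 and 0.21, while interferon-stimulated genes spread to both sides.

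The m6A experiment asked which transcripts of control CFU-E were more or less abundant in the m6A IP than in the input, scaled so that most genes do not differ. A call needed an adjusted p under 0.05, in either direction. Across 11447 genes tested, 7.90% were called higher in the IP and 7.86% lower. Of the 9 members, Adar was lower in the IP, and none was higher by edgeR or DESeq2, with 1 member, Ddx58, higher at an unadjusted p under 0.05. The median log2 ratio of the members was -0.06, against 0.06 over all genes tested. With 2 libraries a group, 6 of the 9 members had groups without overlap, beside 60.9% of all genes tested, so such a separation is common here.

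The 3 receptors and Mavs had higher mean levels in the IP, none past the test. Ifih1 stood at 4.06 and 5.11 CPM in input and at 7.38 and 5.73 CPM in the IP (log2 ratio 0.52, adjusted p = 0.287), and Ddx58 at 1.76 and 2.87 CPM in input and 5.99 and 3.32 CPM in the IP (1.03, adjusted p = 0.120). Dhx58 stood at 9.43 and 12.4 CPM in input and 16.3 and 15.7 CPM in the IP (0.55, adjusted p = 0.189). Mavs stood at 19.8 and 13.7 CPM in input and 31.9 and 16.5 CPM in the IP, with overlap (0.54, adjusted p = 0.305). Ddx58 was called higher without IP replicate 2 (log2 ratio 1.38, adjusted p = 0.031).

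Adar fell from 23.3 and 16.6 CPM in input to 10.1 and 9.60 CPM in the IP (log2 ratio -1.02, SE 0.28, adjusted p = 0.0334). The call was lost without input replicate 1 (-0.78, adjusted p = 0.263), IP replicate 1 (-1.07, adjusted p = 0.066) or IP replicate 2 (-0.99, adjusted p = 0.0545), and with library sizes as the only scaling (-0.87, adjusted p = 0.108). Irf7 stood at 82.5 and 84.4 CPM in input and at 45.3 and 59.2 CPM in the IP, with every IP library below every input library (-0.68, adjusted p = 0.0705); it passed the test under 3 of 12 alternatives, among them DESeq2 (-0.71, adjusted p = 0.0375) and the fit without IP replicate 2 (-0.89, adjusted p = 0.0493), and the adjusted p ran from 0.00643 to 0.289. Irf3 stood at 199 and 212 CPM in input and at 147 and 158 CPM in the IP (-0.43, adjusted p = 0.186), and passed under 1 of 12 alternatives (adjusted p from 0.0439 to 0.574).
Isg15 stood at 9.21 and 15.01 CPM in input and at 8.30 and 9.95 CPM in the IP (-0.41, adjusted p = 0.395), and Eif2ak2 at 40.5 and 58.4 CPM in input and 42.6 and 52.1 CPM in the IP (-0.06, adjusted p = 0.895), both with overlap. Scaling mattered here: with library sizes only, the median of all genes moved by 0.16 and 60.6% of all calls were higher in the IP, and with upper-quartile scaling 65.8%, against 50.1% in the analysis reported. The direction of Eif2ak2 turned under both scalings (0.09 and 0.07), and that of the other 8 members did not.

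**Figure D4:**
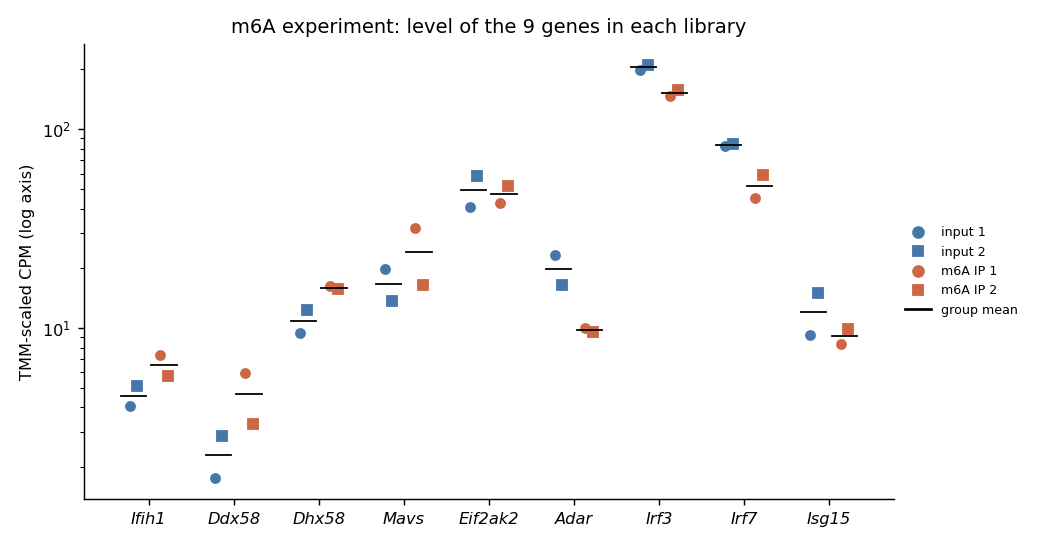
Level of the 9 genes in the 2 input and 2 m6A IP libraries of control CFU-E, in TMM-scaled CPM on a log axis, with black lines for group means. Adar lies at 10.1 and 9.60 CPM in the IP, below both of its input libraries.

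**Figure D5:**
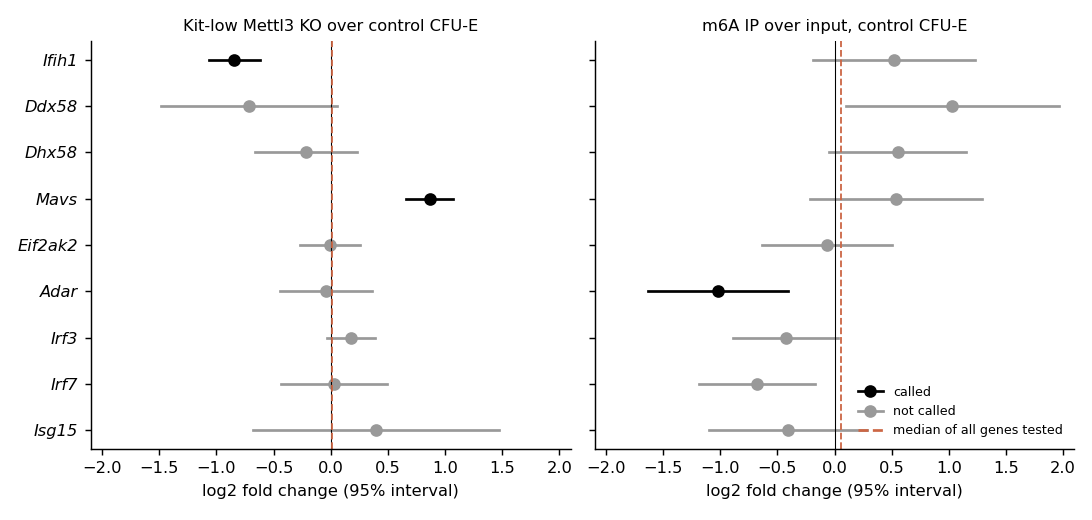
Log2 fold change of each member with its 95% interval, Kit-low over control in RNA-seq (left) and IP over input (right); black marks called genes and the dashed line the median of all genes tested. Ifih1 (-0.84) and Mavs (0.86) stand apart on the left, and Adar (-1.02) on the right.

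The pentamer GGACT, the commonest sequence in which m6A is written, was counted in the longest annotated transcript of each member. Dhx58 held 2.90 per kilobase, Irf3 2.46 and Eif2ak2 2.09, each above at least 90.6% of the genes tested, while Adar held 1.02 and Mavs 0.98, near the median of 1.03 over all genes. Irf7 held none in 2237 bases and Ifih1 held 3 in 5470 bases. Irf3 and Dhx58, with similar pentamer content, had log2 ratios of opposite sign. Genes called higher in the IP had a median of 0.92 per kilobase and genes called lower 1.06, on either side of the median of all genes.

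Of 158 tested genes of the pathway lists, 14 were higher in the IP and 12 lower, shares near the 7.90% and 7.86% over all genes tested. Irgm1, an interferon-induced GTPase, was the most enriched, at 13.9 and 15.7 CPM in input and 84.2 and 86.5 CPM in the IP (log2 ratio 2.53, adjusted p = 6.93e-05), and Cxcl10 the most depleted (-3.90, adjusted p = 0.00288, from 1.499 and 2.14 CPM to 0.10 and 0.15 CPM). Only these 2 of the 22 genes named by the rule were called under every alternative that tested them, 12 for Irgm1 and 11 for Cxcl10. Among the binders and clearers of double-stranded RNA, Pnpt1 (1.85), Ttc37 (1.58) and Skiv2l (1.21) were higher in the IP. Pnpt1 stood at 23.1 CPM in IP replicate 1 and 7.99 CPM in IP replicate 2, and its call was lost without IP replicate 1 (0.87, adjusted p = 0.144) or input replicate 1 (1.65, adjusted p = 0.119). Skiv2l was lost without input replicate 1 (adjusted p = 0.076), input replicate 2 (0.192) or IP replicate 1 (0.0787), and Ttc37 without input replicate 1 (0.099). Without input replicate 1 the counts over the lists dropped to 1 higher and 2 lower, without input replicate 2 to 11 and 4, and without IP replicate 1 to 6 and 4.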

How the data were processed

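The authors trimmed reads with fastp 0.23.4, quantified transcripts with kallisto 0.48.0 and summed them to genes; the labels list builds mm10 and GRCm39 without a role. The 2 tables of estimated counts per gene, whole numbers as deposited by the authors, hold 3 control and 3 Kit-low Mettl3 KO RNA-seq libraries, and 2 input and 2 IP libraries. The m6A libraries carried molecular identifiers, whose use in counting is not stated. Of the 16 samples, 6 of ProE cells were not analysed here.

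Each table was fitted on its own with edgeR 4.0.16 (R 4.3.3; filterByExpr, TMM, quasi-likelihood test, Benjamini-Hochberg adjustment over all genes tested), without covariates. RNA-seq calls needed adjusted p under 0.05 and a fold of 1.5, m6A calls adjusted p under 0.05. SEs and 95% intervals come from the same fit. The code was tested on simulated counts. Alternatives were DESeq2 1.42.0, other scalings, filters and thresholds, a replicate block, and leaving out each library. Libraries of a group correlated at 0.967 or more (log2 CPM), and no pair was identical.

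Members and lists were chosen with earlier results of these data known. The text names all members and, per list, called genes with average log2 CPM of at least 1, up to 6 in each direction by size (m6A: up to 4, any level), of which examples are given; some items are not reported here. Lengths and coordinates are from a GRCm38 annotation that matched 99.9% of symbols, promoters from RefSeq. No columns of the authors' own comparisons were used.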

Additional observations from a re-analysis of the deposited data

How the results depend on the processing

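In RNA-seq, Ifih1 and Mavs kept their calls under all 16 alternatives. The 2631 calls became 4128 without a fold threshold and 1147 when tested against a fold of 1.5, which left 11 pathway genes higher and 13 lower in place of 31 and 27. Leaving out 1 library gave 1 to 2 members called lower. Of the 37 named pathway genes, 20 were called under all alternatives and none changed direction. Members near 0 changed sign: Eif2ak2 (0.046 with library sizes only; -0.078 to 0.055 leaving out 1 library), Adar (0.0092; -0.32 to 0.15) and Irf7 (-0.0086 with upper-quartile scaling; -0.17 to 0.22).

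In the m6A experiment the 1804 calls ran from 591 to 2326 leaving out 1 library, members called higher from 0 to 1 and lower from 0 to 1, and pathway genes higher from 1 to 19 and lower from 2 to 12. DESeq2 called 2 members lower, library size only 0. Pathway genes were 22 higher and 7 lower with upper-quartile scaling and 4 lower with library size only. Mavs ranged from -0.041 to 0.93 leaving out 1 library, and Eif2ak2 from -0.33 to 0.22, with 0.094 (library size only) and 0.068 (upper quartile). The causes were not tested.

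The replicate numbers did not pair the RNA-seq samples: same-numbered libraries had correlated deviations of 0.03, -0.02 and -0.07, and not every library correlated best with its own number. A replicate block gave 2495 calls there. In the m6A experiment the correlation was 0.21 over 2 pairs, and the block gave 3538 calls, 3 members lower (Adar, Irf3 and Irf7), and 29 pathway genes higher and 26 lower. Depth limits Isg15, with 14 to 41 counts a library in RNA-seq, and Ddx58 in the input, with 40 and 51 counts.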

Other observations

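Several members took very different places in the 2 protocols, although both were made from control CFU-E. Over the 10773 genes tested in both tables, Ifih1 ranked at the 79.9th percentile of mean CPM in the RNA-seq controls and at the 28.9th in the m6A input, and Ddx58 at the 45.7th and the 19.2nd. Irf7 ranked at the 34.2nd percentile in RNA-seq and at the 77.9th in input, and Isg15 at the 6.90th and the 46.5th. Irf3 (81.1st and 88.7th) and Dhx58 (45.9th and 44.5th) kept similar places. Over all these genes, the ratio of input to RNA-seq level was lower than that of Ifih1 for 1.41% and lower than that of Isg15 for 96.3%. The transcripts of Ifih1 (5470 bases) and Isg15 (756 bases) are among the longest and the shortest of the members. The order by length was not exactly the order by ratio. From the longest member, the percentiles of the ratio were 27.6 for Adar (5909 bases), 1.41 for Ifih1, 70.7 for Eif2ak2 (4313 bases) and 8.32 for Ddx58 (3874 bases). They were 23.5 for Mavs (3057 bases) and 41.0 for Dhx58 (2412 bases). The shortest stood highest, with 93.8 for Irf7 (2237 bases), 76.8 for Irf3 (2031 bases) and 96.3 for Isg15. A part of length was not tested. Both protocols primed the cDNA with oligo-dT. The input libraries carried a molecular identifier in that primer and were amplified from that end after fragmentation, while the RNA-seq libraries were made with Smart-seq2. The tables were normalized separately, so no test was made.

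Among the pathway genes named by the rule, Ppp1r15b and Lgals9 were called in both experiments, which share no libraries. Ppp1r15b, a phosphatase subunit, was higher in both (0.61 and 0.89), and Lgals9, a galectin, was lower in both (-2.19 and -1.13). The m6A call of Ppp1r15b was lost without input replicate 1 (adjusted p = 0.282), input replicate 2 (0.151) or IP replicate 1 (0.118) and with library size only (0.0501), and its RNA-seq change fell under the threshold with upper-quartile scaling (0.58). The m6A call of Lgals9 was lost without input replicate 1 (adjusted p = 0.12) or input replicate 2 (0.147).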
